A study of Mus musculus with 11 samples.

Results

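The genes described here were those of the ISG15 system and of the core antiviral effectors: Isg15, Usp18, Herc6, Uba7, Rsad2, Cmpk2, Mx1, Mx2, Ifi44 and Bst2. They were chosen by symbol, with earlier results of these data known, and 8 of the 10 were matched to a row among 36529 genes in each count table. Values for Mx1 and Mx2, which encode antiviral GTPases, were not analysed here. The RefSeq annotation of GRCm38.p6, built on the C57BL/6J strain, lists both of these genes on chromosome 16 as transcribed pseudogenes, whereas GENCODE lists Mx1 as protein coding and Mx2 as a polymorphic pseudogene.

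Total RNA was sequenced from BV2 cells, mouse microglia transformed into a permanent line and labelled as strain C57BL/6, to learn which transcripts change when the cells meet an amino-terminal fragment of apolipoprotein E. In the nApoE4 experiment, 3 samples received 25 µg/ml of the fragment of apoE4 (residues 1 to 151) for 5 h and 3 untreated samples served as their controls. In the nApoE3 experiment, 2 samples received the matching fragment of apoE3 at the same dose and time, and 3 other untreated samples served as controls. Both fragments carry a histidine tag and differ from each other by a cysteine to arginine exchange. The labels name PBS as the vehicle, whereas the methods of the study describe conditioned media for untreated cells. Since each fragment had its own experiment, fragment and experiment cannot be told apart in any difference between them. All samples came from the same cell line. The methods speak of independent measurements without saying whether these were separate cultures, so p-values measure the spread between these samples, which may be technical in part.

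Interferons released by cells that sense a virus or another danger signal act through their receptor and the kinases Jak1 and Tyk2 on transcription factors that bind a DNA element in front of their target genes. Isg15, a small protein related to ubiquitin, is among these targets and is joined to other proteins by a chain of enzymes: Uba7 activates it, Ube2l6 carries it, and Herc6 acts as the main ligase in mice. Usp18 takes ISG15 off again and also dampens signalling at the interferon receptor. Rsad2 (viperin) makes an altered form of CTP that stops viral polymerases, Cmpk2 is a mitochondrial nucleotide kinase encoded next to it, and Bst2 (tetherin) holds budding virus particles at the cell surface. Ifi44 is an interferon-induced gene of less defined function. In microglia, genes of this kind mark an interferon-responsive state.

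The DNA element of the interferon response was looked for in the RefSeq promoter windows of GRCm38.p6, each of which runs from 250 bases before to 50 bases after an annotated start site. A window was given for 7 of the 8 genes, Usp18 being the exception. The core of the interferon-stimulated response element, GAAA repeated after 2 further bases on either strand, was found in 3 of these 7 windows, those of Isg15, Bst2 and Rsad2, and in 3.44% of all 32851 windows. The stretches that hold it are shown, from 5′ to 3′ on the strand of the gene, because these are the letters that this response is known to act through. Capitals mark the core.
Isg15: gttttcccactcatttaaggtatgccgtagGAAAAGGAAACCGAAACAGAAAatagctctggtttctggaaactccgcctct
Bst2: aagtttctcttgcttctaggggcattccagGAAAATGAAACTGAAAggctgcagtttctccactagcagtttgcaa
Rsad2: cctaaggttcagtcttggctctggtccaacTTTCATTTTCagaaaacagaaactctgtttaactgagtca

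The Isg15 stretch lies at chr4:156200845-156200926 on the minus strand, 108 to 27 bases before the start site, and its capitals are 3 matches that overlap each other. The Bst2 stretch, at chr8:71537557-71537632 on the minus strand and 160 to 85 bases before the start site, holds 2 overlapping matches. The Rsad2 stretch is at chr12:26456533-26456602 on the minus strand, 150 to 81 bases before the start site, and its 1 match is read on the opposite strand. The windows of Herc6, Uba7, Cmpk2 and Ifi44 did not hold these letters. The Cmpk2 window, chr12:26468965-26469264, is set on a start site inside the locus, which begins at base 26469117. Less sequence before the Cmpk2 locus was therefore searched than for the other genes. A match to the gamma-activated site, TTCNNNGAA, was present in 1 of the 7 windows, that of Bst2, where it overlaps the first core by part of its length, and in 8.3% of all windows. Letters of an NF-kB site, GGG and CC parted by 5 bases, were present in 4 of the 7 windows (Herc6, Bst2, Rsad2 and Cmpk2) and in 50.8% of all windows. These matches describe the letters only, and binding of any factor was not measured.

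**Figure D1:**
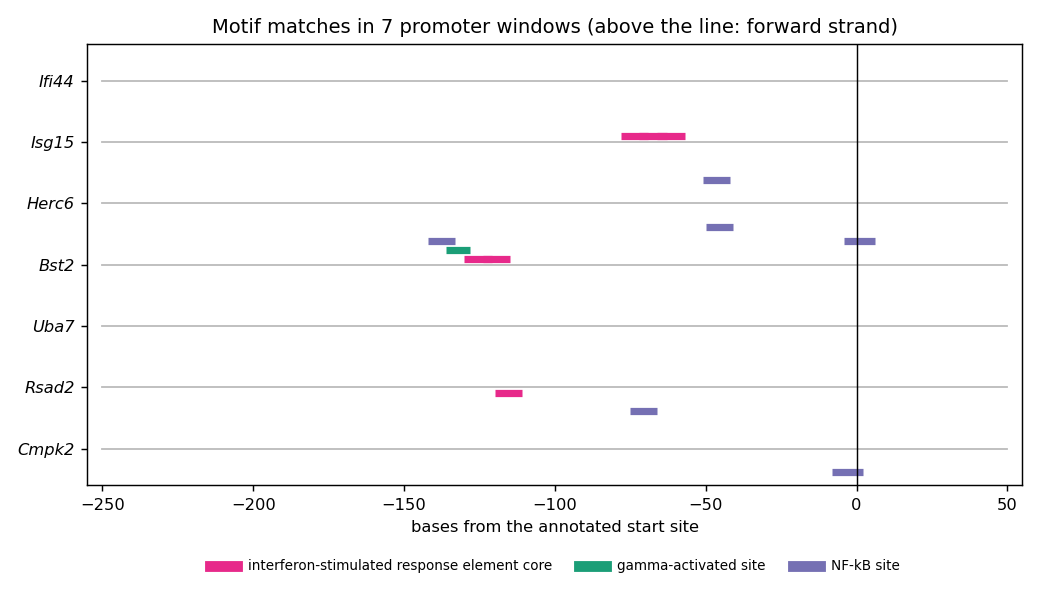
Matches to 3 motifs in the promoter windows of 7 genes, plotted by distance in bases from the annotated start site, with forward-strand matches above each line and reverse-strand matches below. The cores of the interferon element stand between 130 and 57 bases before the start site in Isg15, Bst2 and Rsad2, and no motif match was found in the windows of Uba7 and Ifi44.

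Every sample held between 39732710 and 69768666 counts on genes, with 39732710 to 44162511 in the nApoE4 experiment and 55809688 to 69768666 in the nApoE3 experiment. Levels are given as CPM, counts scaled to the same library total with TMM over the 11 samples, and 3 counts were taken as the floor, which corresponds to 0.0430 to 0.0755 CPM. The cells carried RNA of the microglial and macrophage markers: 10 of 13 were above 3 counts in every sample, with a summed level of 3341 to 3695 CPM in the nApoE4 controls, 3155 to 3235 CPM with nApoE4, 2325 to 2424 CPM in the nApoE3 controls and 2587 to 2591 CPM with nApoE3. The defining marker P2ry12 was counted at 0 in every sample, which alone does not show that the gene was silent. Aif1 and Cx3cr1 had means under 1 CPM in every group. Group means were 0.821 to 2.78 CPM for C1qa and 1.42 to 8.56 CPM for Tmem119. Trem2 was uneven, at 21.5 ± 33.9 CPM (SD, n = 3) in the nApoE4 controls and 0.722 ± 0.0942 CPM (SD, n = 3) in the nApoE3 controls. Markers of neurons and fibroblasts summed to under 1 CPM in every sample, and Mog and Cldn5 were at 0. Oligodendrocyte markers, mostly Mbp, summed to 9.28 to 14.3 CPM in the nApoE4 experiment and 22.1 to 25.4 CPM in the nApoE3 experiment, and endothelial markers to 0.385 to 1.72 CPM over all samples. Summed astrocyte markers moved from 1.2 to 1.39 CPM up to 6.02 to 7.03 CPM with nApoE4. With nApoE3 they moved from 1.05 to 1.22 CPM up to 4.37 to 4.53 CPM. Almost all of this was Slc1a2. The highest group means of the other astrocyte markers were 0.05235 CPM for Gfap, 0.0101 CPM for Aqp4 and 0.282 CPM for Aldh1l1. The samples are of a single cell line, and whether any other cells were present was not tested. Replicate 2 of the nApoE4 controls stood farthest from its group, with chi-squares per gene of 25.8 and 47.9 against the other 2 controls and 3.15 to 12 between all other replicate pairs, and all 8 genes remained called higher with nApoE4 without it. In bulk RNA, fewer cells of a type and less RNA per cell cannot be told apart.

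All 8 genes were higher with nApoE4 than in its controls and all 8 were higher with nApoE3 than in its controls, by the quasi-likelihood F test of edgeR at an adjusted p under 0.05 (Benjamini-Hochberg over all genes). Among the 14240 genes tested in the nApoE4 experiment 28.6% were called higher by the same rule, and among 14817 in the nApoE3 experiment 33.1% were. With a fold change over 2 asked as well, 7 of the 8 passed with nApoE4, Bst2 being the exception, against 10.2% of all genes, and 8 of 8 passed with nApoE3, against 9.6% of all genes. The median log2 fold change of the 8 genes was 3.77 with nApoE4 and 4.86 with nApoE3, whereas the median over all genes tested was close to 0 in both experiments (0.0013 and -0.0026).

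**Figure D2:**
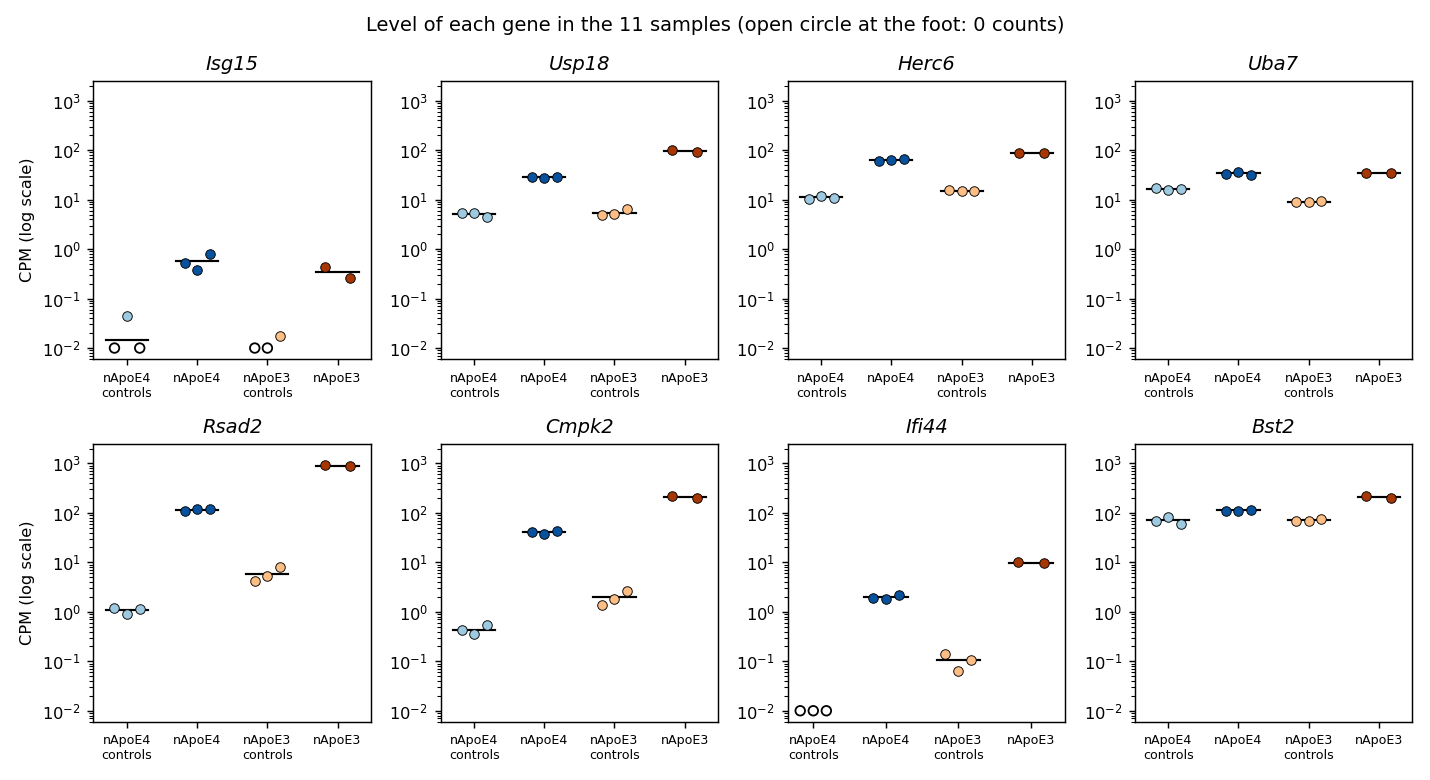
CPM of 8 genes in each of the 11 samples on a log axis, by group, with a bar at the group mean where it can be drawn and open circles at the foot for samples with 0 counts. In all 8 genes the treated samples sit above every control sample of their own experiment, and Rsad2 spans the widest range, from 0.914 CPM in an nApoE4 control to 933 CPM with nApoE3.

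Of the ISG15 system, the modifier itself was close to the floor of the measurement, while the enzymes that act on it were well counted. Isg15 (chr4:156199424-156200818, minus strand) had 0, 2 and 0 counts in the nApoE4 controls and 23, 16 and 32 counts with nApoE4. The nApoE3 controls had 0, 0 and 1 count, and the nApoE3 samples had 25 and 15 counts. No treated sample overlapped a control sample, and the treated groups overlapped each other. Summed over samples and scaled for depth, 71 counts against 2 gave a ratio of 38.3 for nApoE4, with a 95% counting interval of 10.2 to 323, and 40 counts against 1 gave 65.9 for nApoE3, with an interval of 11.2 to 2667. These intervals cover counting error only. The adjusted p from edgeR was 1.92e-04 with nApoE4 and 4.05e-05 with nApoE3. The fitted log2 fold changes, 5.02 with nApoE4 and 5.57 with nApoE3, rest on the few control counts and went to 7.62 without replicate 2 of the nApoE4 controls and 7.43 without replicate 3 of the nApoE3 controls.

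Per kilobase of exon, the mean level of Isg15 with nApoE4 was 0.762 ± 0.282 RPKM (SD, n = 3), against 58.6 ± 0.904 RPKM for Ube2l6, 10.3 ± 0.231 RPKM for Usp18, 6.8 ± 0.355 RPKM for Herc6 and 5.05 ± 0.346 RPKM for Uba7. With nApoE3 the order of these 5 means was the same, from Ube2l6 at 70.4 ± 4.44 RPKM (SD, n = 2) to Isg15 at 0.460 ± 0.153 RPKM. No stretch of 75 bases of the Isg15 transcript recurs in another GENCODE gene, and 80 bases of its locus are also annotated in RefSeq to a further gene, Gm46878. Why so few reads were counted on Isg15 was not tested.

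Uba7, the activating enzyme (chr9:107975567-107984056, plus strand), was at 17.5, 15.9 and 16.2 CPM in the nApoE4 controls and rose to 33.4, 36.3 and 31.7 CPM with nApoE4, a log2 fold change of 1.04 (SE 0.074, adjusted p = 1.85e-06). It was at 9.14, 8.92 and 9.33 CPM in the nApoE3 controls and rose to 35.2 and 33.8 CPM with nApoE3, a log2 fold change of 1.91 (SE 0.044, adjusted p = 1.98e-12). The treated samples of both experiments covered the same range, and the controls did not. With nApoE4 the change of Uba7 lay at the edge of the 2-fold rule and went to a log2 value of 0.98 without replicate 2 of the nApoE4 samples. Of the 75-base stretches of its transcripts, 2.08% recur in another GENCODE gene, Gm20661.

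Herc6, the ligase (chr6:57580992-57665136, plus strand), was at 10.5, 12 and 10.8 CPM in the nApoE4 controls and at 60.5, 62.1 and 66.9 CPM with nApoE4, a log2 fold change of 2.51 (SE 0.074, adjusted p = 4.32e-09). The nApoE3 controls were at 15.9, 14.7 and 15.0 CPM and the nApoE3 samples at 89.0 and 87.1 CPM, a log2 fold change of 2.53 (SE 0.037, adjusted p = 4.72e-14). The 4 groups did not overlap. Since 11.3% of the 75-base stretches of Herc6 transcripts recur in other genes, a share of its reads may have been left uncounted or placed elsewhere, which the counts do not show.

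Usp18, the protease that removes ISG15 (chr6:121245906-121270917, plus strand), was at 5.40, 5.44 and 4.46 CPM in the nApoE4 controls and at 29.3, 28 and 28.9 CPM with nApoE4. Its log2 fold change was 2.50 (SE 0.090, adjusted p = 1.56e-08), or 5.66-fold. With nApoE3 it went from 4.80, 5.04 and 6.39 CPM in the controls to 99.4 and 91.8 CPM, a log2 fold change of 4.15 (SE 0.072, adjusted p = 1.71e-13), or 17.7-fold. The controls of both experiments overlapped, and the nApoE3 samples were all above the nApoE4 samples. Of its 75-base stretches, 1.92% recur in the overlapping gene Gm44148.

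Among the antiviral effectors, Rsad2 and Cmpk2 rose from low levels in control cells in both experiments. Rsad2 (chr12:26442743-26456452, minus strand) was at 1.2, 0.914 and 1.16 CPM in the nApoE4 controls and at 111, 118 and 122 CPM with nApoE4. Its log2 fold change was 6.75 (SE 0.099, adjusted p = 1.25e-10), or 107-fold. In the nApoE3 experiment the controls were at 4.21, 5.40 and 8 CPM and the treated samples at 933 and 870 CPM, a log2 fold change of 7.29 (SE 0.11, adjusted p = 4.71e-14), or 156-fold. The 4 groups did not overlap, and the nApoE3 samples stood highest. The mean level with nApoE3 was 7.71 times that with nApoE4, and the mean level of the nApoE3 controls was 5.39 times that of the nApoE4 controls.

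Cmpk2 (chr12:26469117-26479837, plus strand) lies 12665 bases from Rsad2 and is transcribed away from it. It was at 0.423, 0.357 and 0.536 CPM in the nApoE4 controls and at 40.7, 37.9 and 42.6 CPM with nApoE4, a log2 fold change of 6.52 (SE 0.12, adjusted p = 4.23e-10). With nApoE3 it went from 1.35, 1.86 and 2.68 CPM to 222 and 204 CPM, a log2 fold change of 6.79 (SE 0.098, adjusted p = 4.19e-14). As for Rsad2, the 4 groups did not overlap. The counts of Rsad2 were 2.16 to 2.83 times those of Cmpk2 in the nApoE4 controls, 2.73 to 3.11 times with nApoE4 and 2.90 to 3.13 times in the nApoE3 controls. With nApoE3 this ratio was 4.21 and 4.26, above all 9 other samples.

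Ifi44 (chr3:151730922-151749910, minus strand) had 0 counts in each of the 3 nApoE4 controls and 80, 77 and 88 counts with nApoE4, a level at least 29.4-fold higher when each control library is set to the floor of 3 counts (adjusted p = 2.26e-06 by edgeR). Its counts were 10, 4 and 6 in the nApoE3 controls and 588 and 537 with nApoE3, a log2 fold change of 6.50 (SE 0.18, adjusted p = 9.43e-12), or 90.6-fold. The groups did not overlap, and mean levels were 1.98 ± 0.207 CPM (SD, n = 3) with nApoE4 and 9.81 ± 0.420 CPM (SD, n = 2) with nApoE3.

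Bst2 (chr8:71534255-71537472, minus strand) was the member with the smallest fold change and the highest level in control cells. It was at 67.7, 82.5 and 60.3 CPM in the nApoE4 controls and at 111, 108 and 117 CPM with nApoE4, a log2 fold change of 0.68 (SE 0.10, adjusted p = 3.12e-04), or 1.61-fold. In the nApoE3 experiment it went from 68.9, 68.2 and 73.5 CPM to 224 and 203 CPM, a log2 fold change of 1.6 (SE 0.042, adjusted p = 6.21e-12), or 3.03-fold. The controls of both experiments overlapped, whereas the treated groups did not. Per kilobase of exon, Bst2 was at 77.7 ± 12.5 RPKM (SD, n = 3) in the nApoE4 controls and Rsad2 at 0.251 ± 0.0353 RPKM, and with nApoE3 they were at 236 ± 16 RPKM (SD, n = 2) and 208 ± 10.3 RPKM.

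**Figure D3:**
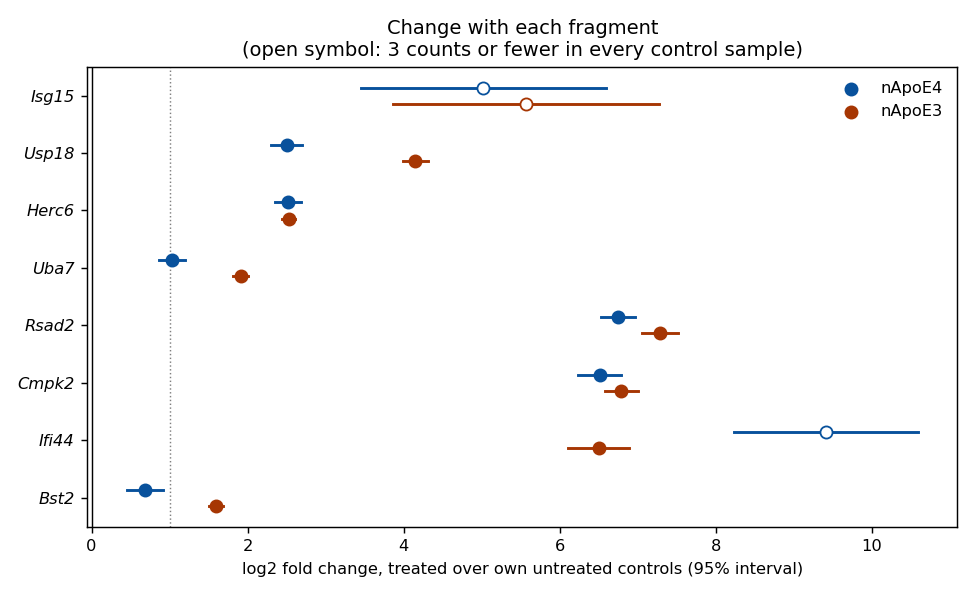
Log2 fold change of each gene with nApoE4 and with nApoE3 over its own untreated controls, with 95% intervals from the fit and a dotted line at 2-fold. Open symbols mark genes with 3 counts or fewer in every control sample, whose position depends on the prior count, and of the filled symbols only Bst2 with nApoE4 lies left of the dotted line.

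Whether the change differed between the fragments was tested as the nApoE4 change minus the nApoE3 change over all 11 samples. Of the 8 genes, 3 passed the threshold, each with a larger rise under nApoE3, and none passed with a larger rise under nApoE4. Over the 15287 genes tested, 13.9% were called with a more positive change under nApoE3 and 14.4% with a more positive change under nApoE4. The log2 difference was -1.65 for Usp18 (95% interval -1.96 to -1.35, adjusted p = 2.70e-06), -0.89 for Uba7 (-1.08 to -0.69, adjusted p = 1.08e-05) and -0.93 for Bst2 (-1.22 to -0.64, adjusted p = 2.04e-04). For Usp18 and Bst2 the control groups overlapped and the treated groups did not. For Uba7 the treated groups overlapped and the control groups did not.

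For the other 5 genes the test did not pass, with intervals of quite unequal width. Herc6 had a log2 difference of -0.026 (95% interval -0.22 to 0.16, adjusted p = 0.866), the narrowest interval of the 8. Rsad2 had a difference of -0.54 (-1.2 to 0.13, adjusted p = 0.226) and Cmpk2 of -0.28 (-1.05 to 0.50, adjusted p = 0.618). The call for Rsad2 turned on 1 library, as the difference was -0.82 with an adjusted p of 0.00601 by edgeR without replicate 3 of the nApoE3 controls, the control sample with the highest Rsad2. Isg15 could be placed only between -2.93 and 2.04 (adjusted p = 0.817). For Ifi44 the fitted difference of 3.16 (0.90 to 5.41, adjusted p = 0.0681) depends on the prior count, because its nApoE4 controls were all at 0.

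The untreated controls of both experiments were then compared with each other, since they show how far the genes stood apart before any fragment was added. Rsad2 was higher in the nApoE3 controls by a log2 value of 2.41 (SE 0.26, adjusted p = 7.65e-05), Cmpk2 by 2.13 (SE 0.31, adjusted p = 3.72e-04) and Herc6 by 0.44 (SE 0.068, adjusted p = 5.99e-04). Uba7 was lower there, with a log2 value of -0.87 (SE 0.065, adjusted p = 9.53e-06). Usp18 (0.067, 95% interval -0.25 to 0.39, adjusted p = 0.684) and Bst2 (-0.015, 95% interval -0.26 to 0.23, adjusted p = 0.904) did not pass. Isg15 and Ifi44 did not pass the filter on low counts in this comparison. Fits that kept them, with all 11 samples in one fit or all genes with at least 1 count, called Ifi44 higher in the nApoE3 controls (adjusted p = 2.07e-04 and 0.00319 by edgeR) and did not call Isg15 (adjusted p = 0.502 and 0.602). Ifi44 had 10, 4 and 6 counts there against 0 in each nApoE4 control, so its fitted value depends on the prior count. Of the genes that passed the filter, 3 of 6 were called higher and 1 lower, against 34.4% of 14249 genes called higher and 34.9% called lower in the nApoE3 controls.

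**Figure D4:**
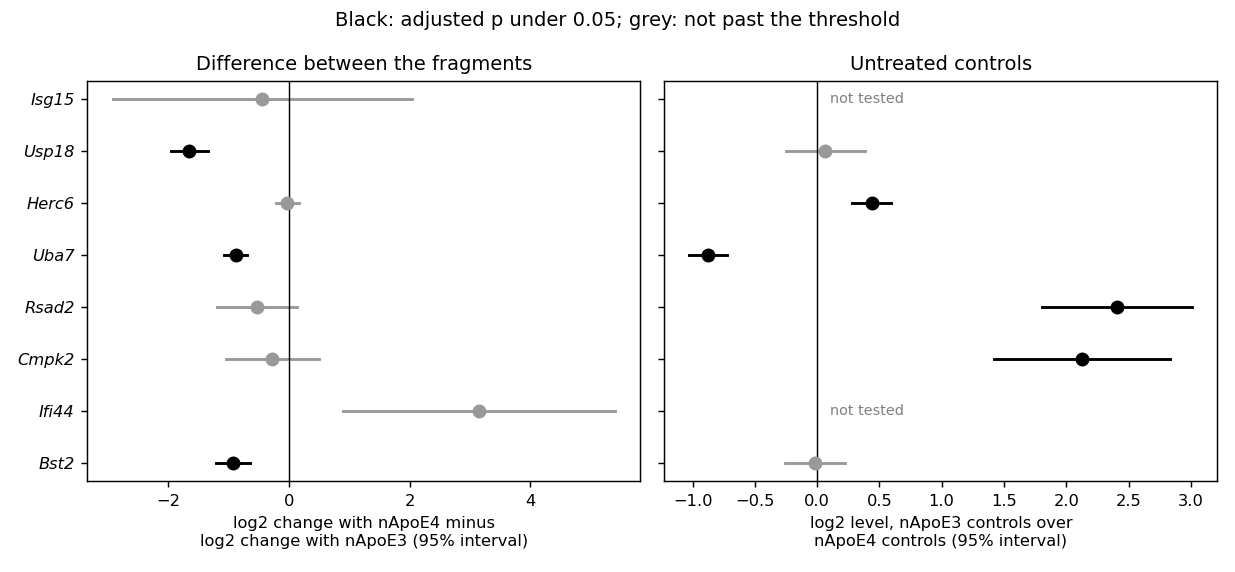
On the left, the log2 change with nApoE4 minus the log2 change with nApoE3 for each gene, and on the right the log2 level of the nApoE3 controls over the nApoE4 controls, both with 95% intervals. Usp18, Uba7 and Bst2 are the genes past the threshold on the left, and Herc6, Uba7, Rsad2 and Cmpk2 those on the right.

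Of 6 partners of ISG15 outside the chosen genes, 3 of the 5 tested were higher with nApoE4 and none was lower, and with nApoE3 5 of 6 were higher and 1 lower, beside 28.6% and 33.1% of all genes called higher. The median log2 fold change of these partners was 0.28 with nApoE4 and 0.47 with nApoE3. Ube2l6, the carrier enzyme, rose by a log2 value of 1.07 with nApoE4 (adjusted p = 2.79e-06) and 1.67 with nApoE3 (adjusted p = 1.69e-12). Itgal, which together with Itgb2 forms the integrin LFA-1, a receptor for secreted ISG15, rose by 1.94 with nApoE4 (adjusted p = 6.26e-08) and 0.72 with nApoE3 (adjusted p = 6.51e-11). The lower gene with nApoE3 was Skp2, at 1.06 ± 1.12 CPM (SD, n = 3) in the controls and 0.288 ± 0.0062 CPM (SD, n = 2) with nApoE3. Arih1 and Itgb2 did not pass with nApoE4 (log2 values 0.059 and 0.031). The difference between the fragments was called for 4 of these 6 genes, and for 28.3% of all genes in either direction. The 4 are named after their values were seen. The difference was -0.61 for Ube2l6 (adjusted p = 6.77e-04), -0.89 for the ligase Trim25 (adjusted p = 7.81e-06) and -0.20 for Itgb2 (adjusted p = 0.0454), all larger with nApoE3. It was 1.21 for Itgal (adjusted p = 1.70e-06), larger with nApoE4. All 4 also differed between the controls, with log2 values of nApoE3 over nApoE4 controls of -0.36, -0.19, -0.70 and 1.02 in that order. Mean Itgal was 89.9 CPM in the nApoE4 controls and 185 CPM in the nApoE3 controls. With treatment it was 344 CPM with nApoE4 and 306 CPM with nApoE3.

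Genes of type I interferon signalling moved the same way for the most part. Of 11 tested, 9 were higher with nApoE4 and none was lower, with Jak1 (log2 value 0.019) and Irf3 (-0.088) not passing. With nApoE3 10 of 11 were higher and 1, Irf3, was lower by a log2 value of -0.090 (adjusted p = 0.0280). Of all genes tested, 28.6% were called higher with nApoE4 and 33.1% with nApoE3. The median log2 fold change of the signalling genes was 1.77 with nApoE4 and 2.1 with nApoE3. Ifnb1, which encodes interferon beta, stood at 0.0292 ± 0.0253 CPM in the nApoE4 controls and 0.995 ± 0.269 CPM with nApoE4 (SD, n = 3), a fitted log2 fold change of 4.93 (adjusted p = 2.43e-05) that rests on 4 control counts, and it changed by 3.63 with nApoE3 (adjusted p = 1.11e-06). Irf7, a transcription factor that raises interferon output, rose by 3.89 with nApoE4 (adjusted p = 1.15e-09) and by 5.33 with nApoE3 (adjusted p = 2.03e-13), with a log2 difference between the fragments of -1.44 (adjusted p = 1.33e-04).

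Among 14 other antiviral effectors, 9 of 12 tested were higher and 2 lower with nApoE4, and 10 of 11 tested were higher and 1 lower with nApoE3, with median log2 fold changes of 1.17 and 1.31. The shares of all genes called higher were 28.6% and 33.1%, and those called lower 28.6% and 34.6%. Rtp4, an interferon-induced binder of viral RNA, changed by 6.38 with nApoE4 (adjusted p = 8.99e-09) and 6.05 with nApoE3 (adjusted p = 1.41e-14). Ifitm3, which blocks viral entry, had fitted changes of 5.74 (adjusted p = 2.77e-05) and 5.16 (adjusted p = 1.00e-10), and since its nApoE4 controls held 1 count in all, the first of these depends on the prior count. Ifitm2 fell by 0.28 on the log2 scale with nApoE4 (adjusted p = 0.0118) and rose by 0.17 with nApoE3 (adjusted p = 4.95e-04 by edgeR). The difference between the fragments for Ifitm2 was -0.46 (adjusted p = 0.00292 by edgeR). Its mean level was 284 CPM in the nApoE4 controls and 113 CPM in the nApoE3 controls. Ifi44l, the gene most akin to Ifi44 by name, was listed at 0 in every sample. Of 7 genes that supply CTP, the substrate of Rsad2, 1 was higher and 2 were lower with nApoE4 and 3 were higher and 3 lower with nApoE3, none by more than a log2 value of 0.5. Uck1, a uridine and cytidine kinase, was lower with both (-0.48, adjusted p = 1.48e-04, and -0.41, adjusted p = 8.84e-06), Ctps2 was also lower with both (-0.33, adjusted p = 0.00149, and -0.20, adjusted p = 5.61e-05), and Ctps, a CTP synthase, was higher with both (0.15, adjusted p = 0.0428, and 0.36, adjusted p = 3.18e-08). Over all genes the shares called higher were 28.6% and 33.1% and those called lower 28.6% and 34.6%.

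**Figure D5:**
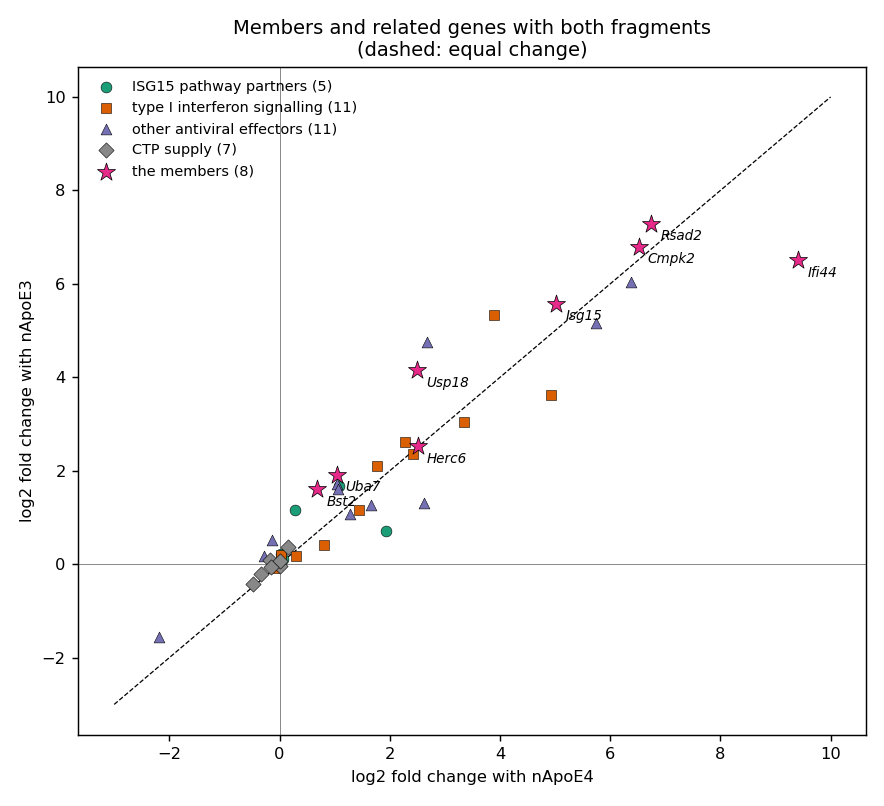
Log2 fold change with nApoE4 (horizontal) against nApoE3 (vertical) for the 8 genes and for related genes tested in both experiments, with a dashed line of equal change. Usp18, Uba7 and Bst2, which passed the test of the difference, lie above the line. Isg15, Rsad2 and Cmpk2, which did not pass it, lie above the line as well. Herc6 lies on it, and Ifi44 lies to the right because its nApoE4 controls had 0 counts.

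The nearest tested genes on either side of each locus were read as well. Genes that overlap a locus were left out, and the distances ran from 1891 to 2712884 bases, so some of these genes are not close. Of 14 such neighbours outside the chosen genes, 6 were higher and 4 lower with nApoE4, and 6 were higher and 3 lower with nApoE3. Over all genes tested, 28.6% were called higher and 28.6% lower with nApoE4, and 33.1% higher and 34.6% lower with nApoE3. Both neighbours of Isg15 rose: Agrn (agrin), 1891 bases away, had log2 fold changes of 2.74 with nApoE4 (adjusted p = 1.34e-08) and 2.16 with nApoE3 (adjusted p = 6.92e-13), and Perm1, 2444 bases away, had 1.33 (adjusted p = 1.71e-07) and 2.53 (adjusted p = 1.23e-11). Gipc2, 343929 bases from Ifi44, changed by 1.53 (adjusted p = 0.00267) and 1.5 (adjusted p = 0.0231). Tuba8, next to Usp18, was called over 2-fold with nApoE3 (1.43, adjusted p = 0.0454). Cdhr4, 8401 bases from Uba7, was lower with nApoE4 (-2.29, adjusted p = 4.93e-05) and with nApoE3 (-1.18, adjusted p = 0.00464).

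The mean profile of the 8 genes over the 11 samples was most alike to that of Oas1a among 7043 other genes that averaged 32 CPM or more in any group, with a Pearson's r of 0.997 on log2 CPM. Parp10, Irf7, Ifi203 and Tor3a followed, each with an r of 0.996. These values describe 11 samples that fall into treated and untreated groups and carry no test. Oas1a, an enzyme that senses double-stranded RNA, had a mean of 20.7 CPM in the nApoE4 controls, 78.2 CPM with nApoE4, 25.4 CPM in the nApoE3 controls and 127 CPM with nApoE3.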

How the data were processed

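The authors sequenced total RNA of BV2 cells as single-end reads, trimmed them with Trim Galore 0.5.0, checked them with FastQC 0.11.8, mapped them to GRCm38.p6 with HISAT2 2.1.0 and deposited the unnormalized gene counts that HTSeq 0.11.0 gave for each sample. The annotation release, strand setting and overlap mode are not given in the sources used here. Reads that map to several places were tallied apart (11.7 to 13.2% of all tallied reads per sample) and lie outside the counts, which can lower genes with shared sequence. Reads tallied as ambiguous between genes (3.24 to 3.56%) lie outside them too, which can lower genes that overlap another.

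Counts were analysed with R 4.3.3 and edgeR 4.0.16 (filterByExpr, TMM, quasi-likelihood F test, Benjamini-Hochberg adjustment over all genes tested, adjusted p under 0.05). Treated samples were set against the controls of the same experiment, the difference of the changes was tested over all 11 samples, and the control groups were compared. Standard errors are the size of the log2 value divided by the square root of F and are approximate. RPKM values were computed here from CPM and the exon length in GENCODE M21. DESeq2 1.42.0 was an alternative. The script was tested on simulated data. The genes and gene lists were chosen with earlier results of these data known. Named genes are all members, the list members with the largest called changes with either fragment, neighbours called over 2-fold, and the 5 genes of most similar profile. Promoter sequences are from RefSeq. Some members of the gene lists are counted but not reported by name here.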

Additional observations from a re-analysis of the deposited data

Results flagged for a closer look

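For 3 of the genes, the change from control differed between the experiments by the test of the difference itself (edgeR's quasi-likelihood F test over the 11 samples). The log2 change with nApoE4 minus that with nApoE3 was -1.65 for Usp18, with all 3 nApoE4 samples between 28 and 29.3 CPM and both nApoE3 samples at 91.8 CPM or more. For Bst2 it was -0.93, with nApoE4 samples of 108 to 117 CPM and nApoE3 samples of 203 and 224 CPM. For Uba7 it was -0.89, where treated samples overlapped and the controls stood at 15.9 to 17.5 CPM and 8.92 to 9.33 CPM. Fragment and experiment cannot be told apart in these values.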

How the results depend on the processing

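All 8 genes stayed called higher with each fragment under every alternative run: DESeq2 size factors, the DESeq2 Wald test, filters of at least 1 count in some sample and of at least 10 counts in every sample where the gene passed it, all 11 samples in one fit, the replicate block and leaving out each replicate. Of 378 values of single genes under alternatives, 364 kept direction and side of the threshold, 2 came to pass it and 12 changed sign, none of which had passed. With replicate number as a block, members called were 8, 8, 4 and 4 for nApoE4, nApoE3, the difference and the controls, and 7036, 9786, 2307 and 9376 genes were called in all, the count for the difference falling from 4331. The cause was not tested. Under the block Rsad2 passed for the difference (-0.82, adjusted p = 0.0307 by edgeR). No nApoE3 sample carries replicate number 3, so under the block replicate 3 of the nApoE3 controls does not inform the change with nApoE3. The call of Rsad2 without that replicate (-0.82) is therefore not a separate result. Same-numbered samples did not deviate together (correlations -0.0707, -0.248 and -0.101 for nApoE4, 0.0081 and -0.0143 for nApoE3), and the block changed no other call of a member. The sign of the difference between the fragments turned for Herc6 with genes of at least 1 count (0.0109), without replicate 2 of the nApoE4 controls (0.036), without nApoE4 replicate 1 (0.0058) and without nApoE4 replicate 2 (3.86e-04), and for Isg15 without replicate 2 of the nApoE4 controls (2.39) and without replicate 1 of the nApoE3 controls (0.052). Between the control groups it turned for Bst2 with all 11 samples in one fit (6.82e-04), without replicate 2 of the nApoE4 controls (0.12) and without replicates 1 or 2 of the nApoE3 controls (0.01 and 0.0174), and for Usp18 without replicate 3 of the nApoE4 controls (-0.023) or of the nApoE3 controls (-0.062). These causes were not tested. Over all leave-one-out fits the difference ran from -0.067 to 0.036 for Herc6 and from -2.10 to 2.39 for Isg15, and the value between the controls from -0.11 to 0.12 for Bst2 and from -0.062 to 0.16 for Usp18. Leaving out each replicate gave 7142 to 8827 genes for nApoE4, 9121 to 9837 for nApoE3, 3040 to 5250 for the difference and 8949 to 10988 for the controls, with 3 to 4 members called for the difference and 6 to 7 members over 2-fold with nApoE4. Low counts limit what can be said of Isg15 and, in control cells, of Ifi44.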
